A study of Mus musculus with 2 samples.

Results

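The genes described here are 8 chemokine ligands and 2 receptors that guide lymphocytes and dendritic cells, measured in the monocytic myeloid-derived suppressor cells (M-MDSCs) of 4T1 tumours from mice on a normal-salt diet (NSD) or a high-salt diet (HSD). Members were all non-control probes whose transcript identifier is a RefSeq transcript of Cxcl9, Cxcl10, Cxcl11, Cxcl16, Ccl17, Ccl22, Ccl19, Ccr7, Cxcl12 or Cxcr4. This gave 13 probes for 9 of the 10 genes, out of 20653 named genes with a probe. No probe matched Cxcl11, which the reference annotation of the C57BL/6J strain lists as a transcribed pseudogene, and it was not analysed here.

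Both groups were female BABL/c mice (the labels' spelling of BALB/c) that received 1000000 4T1 mammary carcinoma cells under the skin after a day without food and were kept on their diet for 16 days. The NSD group ate chow with 0.4% NaCl and drank tap water, and the HSD group ate chow with 4% NaCl and drank water with 1% NaCl. M-MDSCs were isolated from the tumours with magnetic beads and equal cell numbers were mixed within a diet group, so each diet is represented by 1 pooled RNA sample on 1 Agilent array. Ages and the genotype beyond the strain are not given in the labels. With 1 array per diet no test of the diet was possible, no p-value is given, and the spread between mice is unknown. In pooled cells of this kind, fewer cells of a type and less RNA per cell cannot be told apart.

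Chemokines are small secreted proteins that bind G-protein-coupled receptors and draw leukocytes along a gradient. CXCL9, CXCL10 and CXCL11 are induced by interferons and attract activated T cells and NK cells through CXCR3. CXCL16 binds CXCR6, CCL17 and CCL22 bind CCR4 on helper and regulatory T cells, CCL19 brings CCR7-bearing dendritic cells and naive lymphocytes to lymph nodes, and CXCL12 holds CXCR4-bearing leukocytes in bone marrow and other stroma.

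The data are processed signals, in intensity units, which the scanner software had corrected for background. The ± value after a signal is the error the software estimated for that single spot, and every probe of these genes was printed in 1 spot per array. Each log2 signal was set relative to its array's 75th percentile, 252 intensity units for NSD and 233 for HSD. Single and summed signals in intensity units are printed before this scaling. A log2 difference is HSD minus NSD, with an error carried over from both spots. For a probe of another gene printed in several spots per array, the mean spot error was divided by the square root of their number. A gene is said to rise or fall when it differed at least 1.5-fold. No spot of either array was saturated. A probe not well above background by the software's own call is called dim and has only a bound, and the lowest signal among probes above it was 4.61 (NSD) and 4.39 (HSD).

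Of the 9 genes, 7 were well above background on both arrays, Cxcl12 on the NSD array only, and Ccl22 on neither. Cxcl9 and 1 of the Ccl19 probes rose in the HSD group, Cxcl10 fell, and Cxcl12 fell by a lower bound, while Cxcl16, Ccl17, Ccr7 and Cxcr4 stayed within 1.5-fold. The rise of Cxcl9 and the bound of Cxcl12 were no longer past 1.5-fold with another background correction. That makes 2 of 8 usable genes higher and 2 lower. Of all 16332 genes that either array measured above background, 9.85% rose past the same 1.5-fold threshold, 10.3% fell past it, and 20.1% did one or the other. These shares belong beside every list count below. Over all 29628 such probes 10.2% were higher and 8.91% lower. Of the probes called, 53.4% were higher in the HSD group, against 42.4% under cyclic loess normalization. The median log2 difference of the 7 genes measured on both arrays was -0.015, beside 0.044 over all 15209 genes measured on both. Ccl19 and Cxcl12 are among the genes the article names from these arrays, so their directions are no independent evidence.

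**Figure D1:**
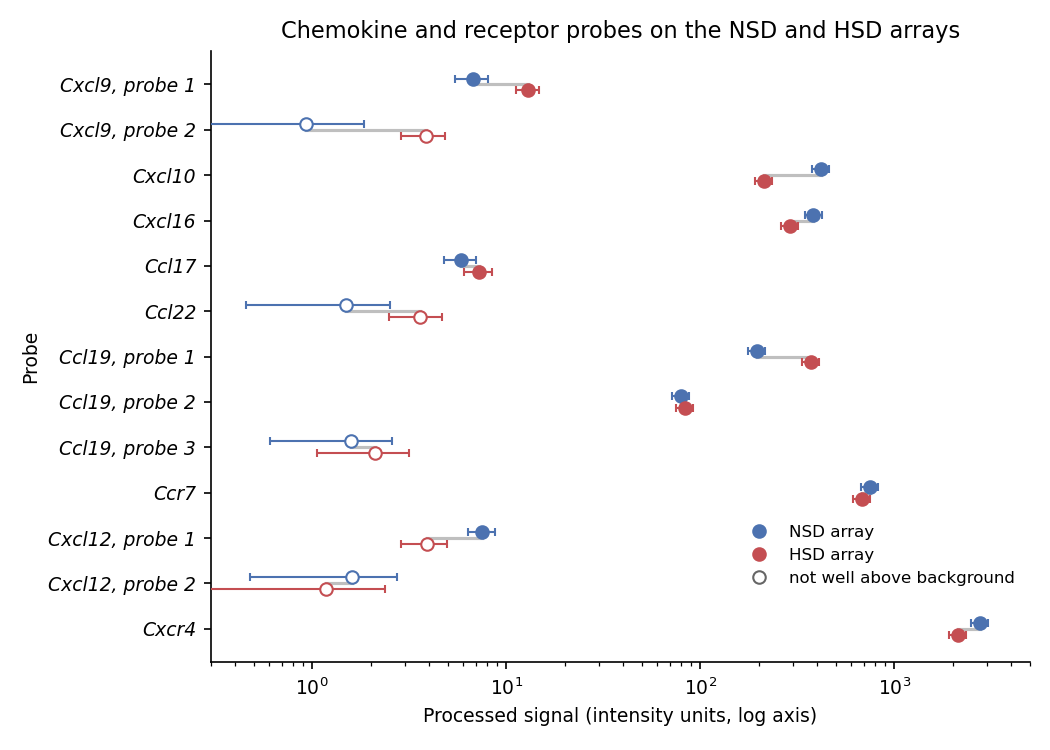
Processed signal (intensity units, log axis) of each of the 13 probes on the NSD array (blue) and the HSD array (red), with the software's error of the spot as bars and open circles where the probe was not well above background. Bars that reach the left edge run on towards 0. Signals are drawn before scaling to each array's 75th percentile, which was 252 for NSD and 233 for HSD. Whether 2 bars overlap is therefore not a measure of the scaled difference, and overlap was not counted over all probes.

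Cxcl10 and Cxcl9, both interferon-induced ligands of CXCR3, went in opposite directions, Cxcl9 at signals close to background. Cxcl10 was at 418 ± 41.8 with NSD and 213 ± 21.3 with HSD. This is a log2 difference of -0.86 ± 0.20, or 1.82-fold lower with HSD, and the difference was between -0.91 and -0.66 under the other ways of processing the signals. Macrophages are a source of CXCL10. Of 6 macrophage markers with a probe, 4 fell, beside 10.3% of all genes lower. The summed signal of all 6 was 7069 for NSD and 4341 for HSD, nearly all of it from Adgre1, which stayed within 1.5-fold. Mrc1 went from 134 to 5.49 intensity units and C1qc from 52.6 to 5.61, C1qa from 12.2 to a signal not above background and Mertk from 95.9 to 15.4. Adgre1, the gene of F4/80, and C1qb had log2 differences of -0.55 ± 0.20 and 0.33 ± 0.21. The part of macrophages in the Cxcl10 value was not tested.

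Cxcl9 was close to background. Its brighter probe went from 6.74 ± 1.33 with NSD to 12.95 ± 1.75 with HSD, a log2 difference of 1.06 ± 0.34, or 2.08-fold higher. Before correction the spot's median brightness was 23 units over a local background of 18 with NSD and 28 over 18 with HSD, so the raw spots differed by 5 units of brightness. With the normexp background correction, which adds an offset of 50 to every signal, the log2 difference was 0.22. The second Cxcl9 probe was dim on both arrays, at 0.932 ± 0.928 and 3.87 ± 0.986. The log2 difference of Cxcl9 exceeded that of Cxcl10 by 1.92 ± 0.40, an error that covers the spots only. With the normexp correction the log2 differences were 0.22 for Cxcl9 and -0.66 for Cxcl10. Of the 27236 probes measured on both arrays, 98.4% had a lower log2 difference than Cxcl9 and 3.97% a lower one than Cxcl10. Of 2776 probes measured on both arrays at mean signals under 10, 11.5% were higher by the 1.5-fold threshold and 5.76% lower. The shares were 9.07% and 9.67% at mean signals from 10 to 100, 8.79% and 8.48% from 100 to 1000, and 7.33% and 5.05% above that.

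The log2 differences of these interferon-induced genes and of Ccl19 had different signs, that of Cxcl9 at signals close to background. The sequences before their transcription starts are therefore shown. They were taken from RefSeq on GRCm38.p6, a C57BL/6J genome and not that of the mice used, and 7 of the 10 genes had such a window. Each runs 5′ to 3′ over the 250 bases before the start, and capitals mark a match, on either strand, to the core of the interferon-stimulated response element (GAAA, any 2 bases, GAAA) or to the NF-κB consensus.
Cxcl9, chr5:92328080-92328329, minus strand: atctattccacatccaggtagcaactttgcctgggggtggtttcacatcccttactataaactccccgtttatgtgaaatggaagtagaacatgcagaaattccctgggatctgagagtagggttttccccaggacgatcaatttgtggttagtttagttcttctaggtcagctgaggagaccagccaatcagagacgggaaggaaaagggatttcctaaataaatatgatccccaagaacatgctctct
Cxcl10, chr5:92348890-92349139, minus strand: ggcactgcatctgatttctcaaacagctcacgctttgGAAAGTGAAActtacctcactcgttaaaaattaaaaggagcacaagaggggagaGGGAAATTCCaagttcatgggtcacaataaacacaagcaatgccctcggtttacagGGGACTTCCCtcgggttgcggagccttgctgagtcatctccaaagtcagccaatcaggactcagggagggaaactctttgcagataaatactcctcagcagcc
Ccl19, chr4:42756366-42756615, minus strand: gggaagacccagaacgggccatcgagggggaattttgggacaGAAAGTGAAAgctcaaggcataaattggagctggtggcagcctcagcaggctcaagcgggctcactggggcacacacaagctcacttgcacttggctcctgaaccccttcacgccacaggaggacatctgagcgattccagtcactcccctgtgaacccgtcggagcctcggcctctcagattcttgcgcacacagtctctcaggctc
Cxcl10 held 1 response element core, at 213 to 204 bases before its start, and 2 NF-κB matches, at 159 to 150 and 103 to 94 bases. Ccl19 held 1 response element core, at 208 to 199 bases, with the same letters as in Cxcl10. The Cxcl9 window held no match to either. Of 32851 promoter windows of the same length, 2.98% held the response element core and 3.90% an NF-κB match. The windows of all 7 genes were also searched for the gamma-activated site (TTC, any 3 bases, GAA, in 7.02% of all windows), the STAT6 site (TTC, any 4 bases, GAA, in 5.85%) and the hypoxia response element core (ACGTG, in 16.6%). Of these, Ccl17 held 1 gamma-activated site and 1 STAT6 site, and no matches overlapped. These are matches of letters, not binding sites, and the arrays do not measure binding.

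The 12 regulators listed for Cxcl9, Cxcl10 and Cxcl11 are interferons and the receptors, kinases and transcription factors of their pathways. Of these genes, 3 fell, none rose and 9 did not pass 1.5-fold, beside 10.3% of all genes lower. The median log2 difference was -0.37 over the 11 measured on both arrays, and at a 2-fold threshold 0 were lower. Irf9, which encodes a subunit of a factor that binds the interferon-stimulated response element, fell by 0.96 ± 0.20 on the log2 scale. Ifngr2 and Jak1, a subunit of the interferon-γ receptor and a kinase of interferon receptors, had the highest log2 differences, 0.41 ± 0.20 and 0.34 ± 0.20, within 1.5-fold. Ifng itself was near the limit of detection, at 9.52 and 9.44 intensity units. Under quantile normalization and cyclic loess 5 of these genes were at least 1.5-fold lower.

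CXCR3, the receptor of these ligands, is carried by activated T and NK cells. Cxcr3 fell from 86.5 to 47.9 intensity units, with a log2 difference of -0.74 ± 0.21. With the normexp correction and at a 2-fold threshold it was no longer called lower. Dpp4, the surface peptidase that trims and inactivates CXCR3 ligands, was at 99.2 and 100.9 (log2 difference 0.14 ± 0.20). Of 9 T and NK cell marker genes, 7 passed the background call with NSD and 8 with HSD. Their summed signal was 2866 and 3286, with Cd3e the gene that fell (log2 difference -1.09 ± 0.21) and none that rose. Ncr1 was dim on both arrays. The part of T and NK cells in the Cxcr3 value was not tested.

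Ccl19, a ligand of CCR7, had 3 probes that did not give the same answer. The first was at 196 ± 19.7 with NSD and 374 ± 37.4 with HSD, a log2 difference of 1.04 ± 0.20, or 2.06-fold higher. The second was at 79.8 ± 8.05 and 83.8 ± 8.44, a log2 difference of 0.19 ± 0.21, within 1.5-fold. The third was dim on both arrays, with signals of 1.59 and 2.10. Of all probes measured on both arrays, 98.3% had a lower log2 difference than the first and 64.2% than the second. The first probe's log2 difference exceeded the second's by 0.86 ± 0.29, and the median of both was 0.61, just past 1.5-fold. Mouse Ccl19 lies in a duplicated region, and the reference lists 4 other loci under its name, pseudogenes included, for which no probe matched. Which of the copies each probe detects was not determined, so the level of Ccl19 itself is uncertain.

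The other ligand of CCR7, CCL21, is encoded by several near-identical copies in the same region. Ccl21a had no matched probe. The 1 probe matched to any of the 6 Ccl21 loci belongs to Gm13304, which was looked up after the Ccl19 values were seen. It rose from 707 to 1049 intensity units, with a log2 difference of 0.68 ± 0.20, or 1.61-fold. Its copies cannot be told apart here either.

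Ccr7, the receptor that takes maturing dendritic cells and naive lymphocytes to lymph nodes, differed by less than its spot error. It was at 746 ± 74.6 with NSD and 682 ± 68.2 with HSD, a log2 difference of -0.015 ± 0.20. The difference lay between -0.082 and 0.019 under the other ways of processing the signals, so it has no direction. Ackr4, the scavenger receptor of CCL19 and CCL21, was dim on both arrays.

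Genes of mature dendritic cells, which carry CCR7, showed no common direction. Of 12 such genes, 2 rose and 3 fell, with a median log2 difference of -0.041, beside 9.85% of all genes higher and 10.3% lower. Marcksl1 and Birc3 rose (log2 differences 0.83 ± 0.20 and 0.65 ± 0.20), whereas the chemokine gene Ccl5 and Il15ra, which presents IL-15, fell (-1.49 ± 0.20 and -1.17 ± 0.20). Fscn1, the actin-bundling protein of mature dendritic cells, was low, at 12.5 and 10.7 intensity units. Of 9 marker genes of dendritic cells, 8 passed the background call with NSD and 7 with HSD. Clec9a and Itgax rose, Clec10a and Batf3 fell with log2 differences of -1.77 ± 0.21 and -1.12 ± 0.22, Cd209a fell from 14.3 to a signal not above background, and Xcr1 was dim on both arrays. Their summed signal was 14206 and 13636 (HSD to NSD ratio 1.04 after scaling), nearly all of it from Siglech. All 5 B cell markers were well above background on both arrays, with summed signals of 6131 and 7134 and log2 differences from 0.30 to 0.55, none past 1.5-fold. The part of dendritic cells and B cells in the Ccr7 signal was not tested.

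Ccl17 and Ccl22, which attract CCR4-bearing T cells, had signals close to background, and only Ccl17 passed the background call. Ccl17 was at 5.86 ± 1.11 with NSD and 7.24 ± 1.17 with HSD, a log2 difference of 0.42 ± 0.36 within 1.5-fold. Its raw spot had a median of 24 over a local background of 17 with NSD and 25.5 over 17.5 with HSD. Ccl22 was dim on both arrays, with signals of 1.49 ± 1.04 and 3.58 ± 1.08, and no fold change is given. Their receptor gene Ccr4 was dim with NSD, at 3.83, and passed the background call with HSD, at 4.82. The bound, 1.13-fold higher, has no error, lies within 1.5-fold and rests on signals close to background.

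Among 9 regulators listed for Ccl17 and Ccl22, genes of the IL-4 and GM-CSF pathways, 1 rose and none fell, with a median log2 difference of 0.20 over the 8 measured. Irf4, a transcription factor of type 2 myeloid responses, rose from 83.1 to 131.5 (log2 difference 0.78 ± 0.21). Csf2rb, the signalling subunit of the GM-CSF receptor, was at 8475 and 11533 (0.56 ± 0.20), just within 1.5-fold. The lowest log2 differences were those of Stat5a, a transcription factor of that receptor (-0.53 ± 0.20), and Il4 (-0.19 ± 0.068), both within 1.5-fold. The smaller error of Il4 comes from the division over its 10 spots per array. Il13 was dim on both arrays.

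**Figure D2:**
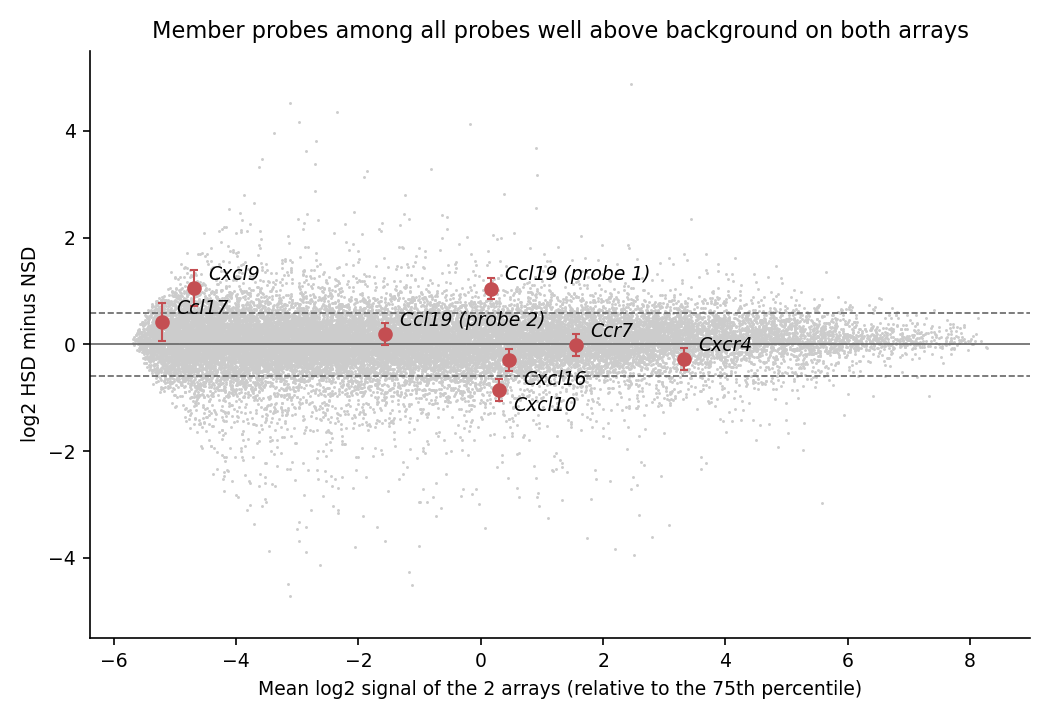
Log2 difference, HSD minus NSD, against the mean log2 signal of both arrays relative to the 75th percentile, for all 27236 probes well above background on both (grey) and the 8 probes of the listed genes (red, bars are the error carried over from both spots). Dashed lines mark 1.5-fold. Cxcl9 and the first Ccl19 probe lie above the upper line at log2 differences of 1.06 and 1.04, and Cxcl10 lies below the lower line at -0.86.

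Cxcl16 encodes a chemokine made as a membrane protein, which also takes up oxidized lipids. It was at 384 ± 38.4 with NSD and 289 ± 28.9 with HSD, a log2 difference of -0.29 ± 0.20, or 1.23-fold lower, within 1.5-fold. Of the proteases that release it, Adam10 was at 3891 and 3404 (log2 difference -0.079 ± 0.20) and Adam17 at 1083 and 1384 (0.47 ± 0.20). The second Adam17 probe had 0.44. Cxcr6, the receptor, was at 24.2 and 20.8, with a log2 difference of -0.10 ± 0.23.

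Cxcl12 and Cxcr4 encode ligand and receptor of the axis that retains leukocytes. Cxcl12, close to background, was lower with HSD past 1.5-fold by a bound, while Cxcr4 stayed within 1.5-fold. Cxcl12 had 2 probes, on different transcripts of the gene. The first was at 7.53 ± 1.21 with NSD and at 3.91 ± 1.05, not well above background, with HSD. This makes it at least 1.58-fold lower with HSD. Its raw spot had a median of 26 with NSD and 21 with HSD over the same local background of 18.5, and with the normexp correction the bound on the log2 scale was -0.012. The second probe was dim on both arrays, with signals of 1.61 ± 1.13 and 1.18 ± 1.18.

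Cxcr4 was well measured, at 2777 ± 278 with NSD and 2122 ± 212 with HSD. The log2 difference of -0.27 ± 0.20 is 1.21-fold lower, within 1.5-fold, and lay between -0.37 and -0.22 under the other ways of processing. Its size is that of a typical gene, as the median absolute log2 difference over all 15209 genes measured on both arrays was 0.27. Of the probes measured on both arrays, 20.1% had a lower log2 difference than Cxcr4. Ackr3, the decoy receptor of CXCL11 and CXCL12, was dim on both arrays, and the atypical receptors Ackr1 and Ackr2, at 10.1 and 12.6 in the NSD group, had log2 differences of -0.17 ± 0.29 and -0.24 ± 0.29. Of the 10 receptors, proteases and other partners of these ligands that had a probe, 8 were usable, and Cxcr3 fell while none rose.

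Fibroblasts and endothelial cells are the usual makers of CXCL12, and stromal cells of lymph nodes also make CCL19. Of 7 fibroblast markers, 5 were well above background on each array, at summed signals of 170 and 147. Col3a1 and Dcn fell, with log2 differences of -1.09 ± 0.36 and -0.80 ± 0.37, Pdgfrb rose by 0.59 ± 0.21, and Lum and Pdgfra were dim on both. Of 6 endothelial markers, 4 were well above background on each array, at summed signals of 502 and 518, none past 1.5-fold, and Emcn was dim on both. Their part in the Cxcl12 and Ccl19 values was not tested.

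**Figure D3:**
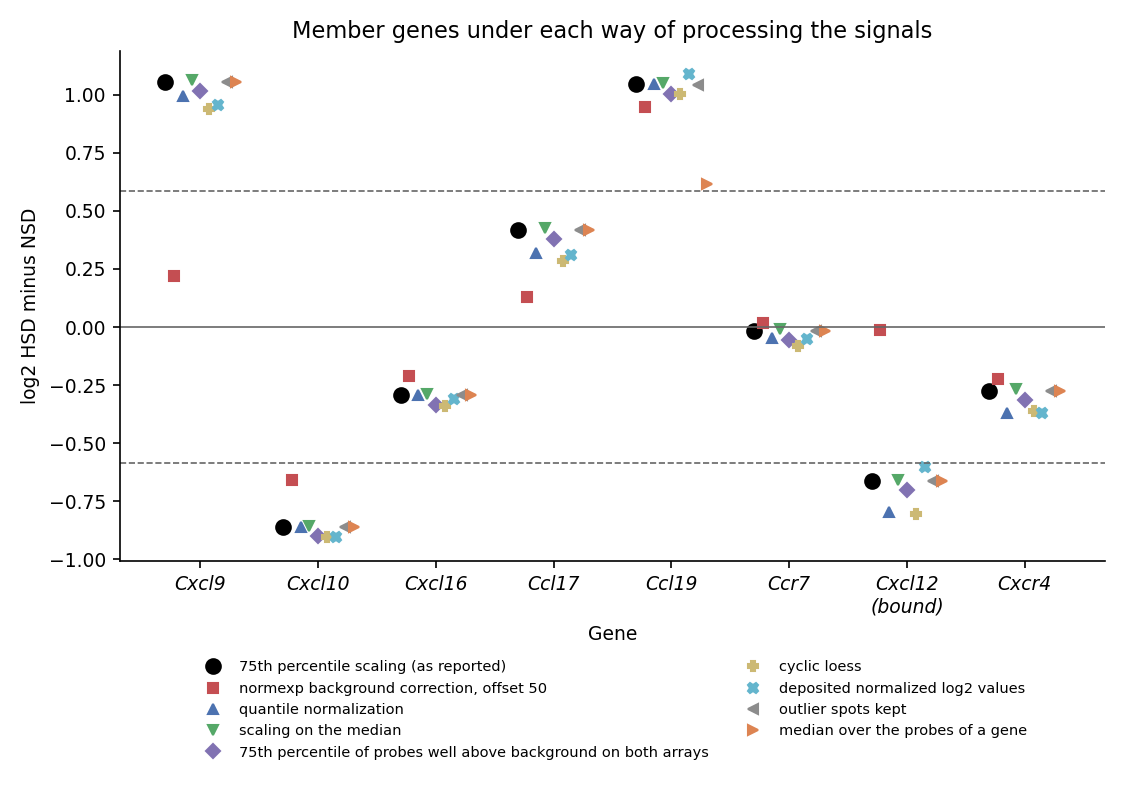
Log2 difference, HSD minus NSD, of the 8 usable genes under 9 ways of processing the same signals (symbols), with dashed lines at 1.5-fold. Cxcl12 is shown by its lower bound. Cxcl10 lies between -0.91 and -0.66 throughout, Cxcl9 and Cxcl12 move to 0.22 and -0.012 with the normexp correction, and Ccl19 moves to 0.61 when its probes are combined.

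Of 19 usable ligand genes outside the list, 5 rose and 10 fell, with a median log2 difference of -0.70 over the 16 measured on both arrays. Over all genes above background on either array, 9.85% rose and 10.3% fell. Cxcl2 and Cxcl1, which attract neutrophils, rose by 2.02 ± 0.20 and 1.88 ± 0.21. Ccl2, which attracts monocytes, and Pf4 of platelets and macrophages fell by 2.36 ± 0.065 and 2.33 ± 0.20. The smaller error of Ccl2 comes from the division over its 10 spots per array. Of 13 usable receptor genes, 5 rose and 4 fell, with a median of 0.46. Cxcr1 and Ccr8 rose by 1.63 ± 0.20 and 1.08 ± 0.21, and Ccr3 fell by 1.21 ± 0.26. Whether these lists differ from the genes above was not tested.

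**Figure D4:**
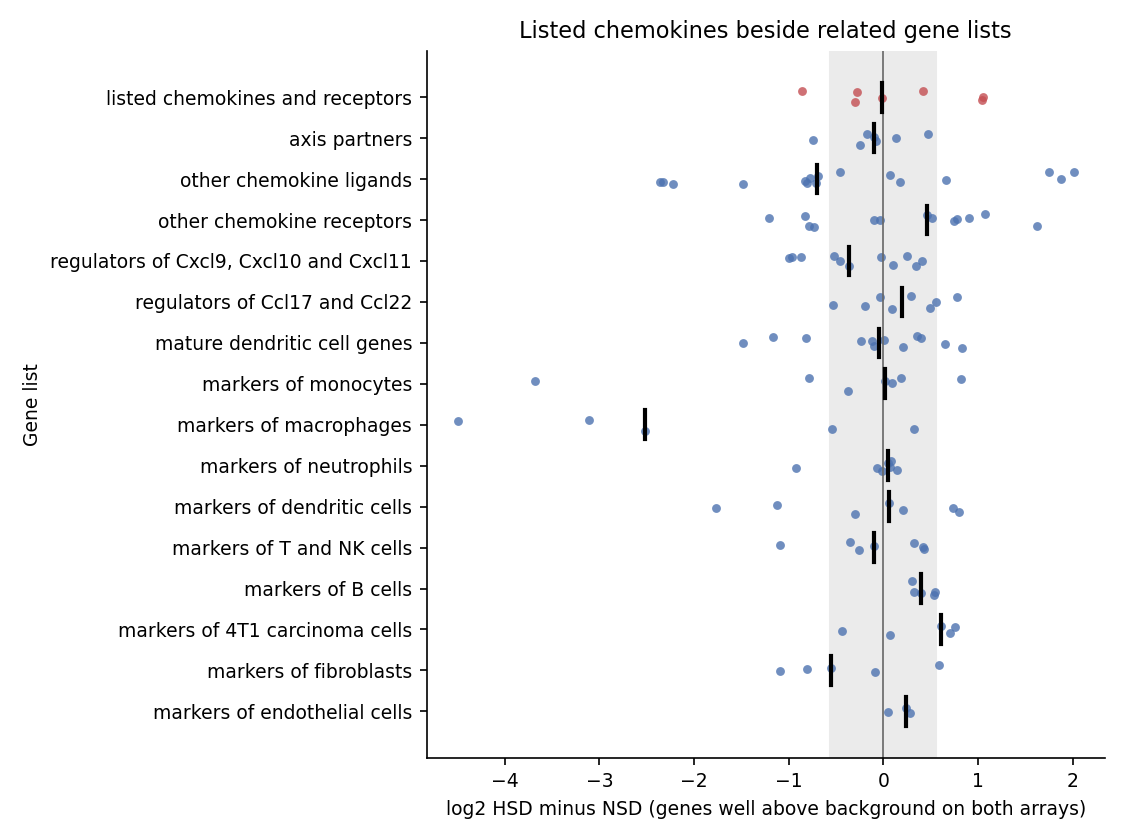
Log2 difference, HSD minus NSD, of each gene well above background on both arrays (points) in the listed chemokines and receptors (red) and in related gene lists and cell type markers (blue), with the median of each list as a black bar. The grey band holds the middle 80% of all 15209 genes, from -0.56 to 0.55. The listed chemokines have a median of -0.015, other chemokine ligands of -0.70 and macrophage markers of -2.52.

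The labelled cell type was checked against its markers. All 7 monocyte markers with a probe were well above background on both arrays, among them Itgam, at 31564 and 31043 intensity units, and Ly6c1, at 51811 and 48478. The summed signal of the list was 102640 and 96898, an HSD to NSD ratio of 1.02 after scaling. In this list 1 gene rose (Cd14, log2 difference 0.82 ± 0.20) and 2 fell (Fcgr1, -3.68 ± 0.21, and Ccr2, -0.78 ± 0.20). All 7 neutrophil markers with a probe were also well above background, at summed signals of 236270 and 225172 (ratio 1.03 after scaling). Of these markers only Mpo fell (log2 difference -0.92 ± 0.20). Among them were genes of neutrophil granules, Camp at 61817 and 59919 intensity units, Ngp at 19224 and 19703, Mpo at 3536 and 1723 and Elane at 1606 and 1412, as well as S100a8 and S100a9, which monocytic cells also express. The part of neutrophils in the values above was not tested. Of 6 carcinoma markers, 3 rose (Krt18, Epcam and Krt8), at a summed signal of the list of 111 and 116, and Krt19 was dim on both arrays.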

How the data were processed

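RNA from M-MDSCs of 4T1 tumours was hybridised with a single dye to Agilent Mouse GE v2 arrays, 1 pooled sample per diet, both on 1 slide. The authors deposited the scanner output of Feature Extraction 11.0.1.1, in which the processed signal is a background-corrected intensity with no normalization between arrays. They also deposited normalized log2 values made with GeneSpring. The sorted columns of that table differ by at most 0.052, and its method is not named in the sources used here. It was used as an alternative.

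Control spots were removed, as were outlier spots (162 for NSD, 179 for HSD). Spots of a probe were averaged as log2 values, from which the array's 75th percentile was subtracted. Of 39413 probes, 71.9% and 72.4% were well above background (at least 50% of a probe's spots). Transcript identifiers named 69.1% of probes through RefSeq on GRCm38.p6, and probe positions, which rest on an older assembly, are not given. Where a gene had several probes, that of highest mean signal stands for it. A fold change against an array where a probe was dim is a bound, computed from the lowest signal well above background or the dim signal itself where higher. Genes named are all members and partners, and from each other list those with the largest rises and falls. Some further list members were named after their values were seen. Some genes that this rule names are not reported here. Members and lists were chosen with earlier results of these data known. The step that counts genes was tested on simulated data. Alternatives were another background correction (normexp on the median signals, since the files hold no mean), scaling on the median or on probes above background on both arrays, quantile and cyclic loess normalization, the deposited values, outlier spots kept, the median over a gene's probes, no filter or a stricter filter on dim probes, and a 2-fold threshold. The software was limma 3.58.1 under R 4.3.3, and numpy 2.4.6, pandas 2.3.3 and, for figures, matplotlib 3.10.9 under Python 3.11.15. Precision is limited by the number of arrays.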

Additional observations from a re-analysis of the deposited data

How the results depend on the processing

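The median log2 difference of the 7 genes measured on both arrays stayed between -0.082 and 0.019 under 8 alternatives. Each of Cxcl9, Cxcl10, Cxcl16, Ccl17, Ccl19 and Cxcr4 kept its direction under the 8 alternatives run on single genes, and Ccr7, at -0.015, did not. The bound of Cxcl12 cannot change sign by its construction, so its direction was not at stake. For every gene but Ccl19 the median over probes repeats the reported value, and keeping outlier spots hardly changed any value. The count of listed genes at least 1.5-fold higher was 2, 1 with the normexp correction, and 3 with no filter on dim probes. The count lower was 2, and 1 with the normexp correction, 1 when both arrays had to be well above background, and 0 at a 2-fold threshold. An added offset pulls the ratios of dim spots towards 1 by construction. Single values that moved by more than their error were Cxcl9 (0.22) with the normexp correction and Ccl19 (0.61) with the median over its probes. Cxcl10 (-0.66) moved by about its error with the normexp correction. The bound of Cxcl12, which has no error, moved to -0.012 with that correction.

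With the normexp correction, 3.24% of all probes were higher and 3.12% lower, and at a 2-fold threshold 2.68% and 3.51%. Among the partners of the ligands, the count lower, which is Cxcr3, fell to 0 under both of these settings. Of the other chemokine ligands, 3 were higher under quantile normalization, cyclic loess, the deposited values and the 2-fold threshold, while 6 were lower with the normexp correction and 5 at 2-fold. Of the other receptors, 2 were higher at 2-fold, and 1 was lower with the normexp correction and 1 at 2-fold. Of the interferon regulators, 5 were lower under quantile normalization and cyclic loess and 0 at 2-fold. Of the regulators of Ccl17 and Ccl22, 0 were higher with the normexp correction and at 2-fold, and 1 was lower under cyclic loess and with the deposited values. Of the mature dendritic cell genes, 0 were higher at 2-fold. The cause of the other changes was not tested.

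No paired analysis was possible because each diet has 1 array. Leaving out a replicate was not possible for the same reason. Signals under about 10 intensity units lie close to background, where repeated spots of 1 probe had a median SD within an array of 0.21 on the log2 scale, against 0.057 at signals from 300 to 1000.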
